A study of Mus musculus with 3 samples.

Results

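Migratory dendritic cells (DCs) of the mouse lacrimal gland (LG) were selected on measured UMI counts, as the cells with 2 or more unique molecular identifiers (UMIs, tags by which each captured RNA molecule is counted once) summed over *Fscn1*, *Ccr7*, *Cacnb3* and *Eno3*. They also had 3 or more UMIs summed over the class II genes *Cd74*, *H2-Aa*, *H2-Ab1* and *H2-Eb1*, and 0 UMIs of *Epcam*, *Col1a1*, *Pecam1* and *Cd3e*, which mark epithelial cells, fibroblasts, endothelial cells and T cells. This gate held 96 of 19592 cells with over 500 UMIs, over 200 genes and under 15% mitochondrial UMIs. The 3 libraries were made from whole LGs of untreated C57BL/6J mice aged 2 months, each from the pooled glands of 3 animals: 1 female library and 2 male libraries. The animals within a library cannot be told apart, and sex, sequencing core and day coincide, so the sexes were not compared by a test.

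DCs take up antigen in a tissue and, once matured, lower their uptake, raise their antigen presentation and co-stimulatory molecules, and leave through lymphatic vessels for the draining lymph node. The chemokine receptor CCR7, which binds CCL19 and CCL21, directs this exit. Fascin, the product of *Fscn1*, bundles actin into the long dendrites of the mature cell, while *Cacnb3* encodes a subunit of voltage-gated calcium channels and *Eno3* an enolase of glycolysis. Migratory DCs are also known for the chemokines CCL17 and CCL22 and for a program of immune regulators.

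The gated cells numbered 28 of 8298 cells in the female library (0.337%, 95% exact interval 0.224 to 0.487%). Male library 1 had 32 of 5582 cells (0.573%, 0.392 to 0.808%), and male library 2 had 36 of 5712 (0.63%, 0.442 to 0.871%). Of all class II cells free of the 4 exclusion genes, they made up 1.66, 3.41 and 4.07%. Intervals cover counting error only. Median depth per gated cell was 4170 UMIs in the female library against 1760 and 1455 in the male libraries, so a fixed limit of 2 UMIs asked more of a male cell. With a limit of 3 UMIs the shares were 0.289, 0.305 and 0.333%. RNA of tear-product genes, which acinar cells make and which led the RNA free in the suspension (80.1 to 85.1% of its UMIs), took a median of 21.8, 50 and 48.3% of a gated cell's UMIs. Levels are therefore given as UMIs per 1000000 non-tear UMIs (CPM). Male library 2 held 4 gated cells with over 80% tear-product UMIs. The libraries shared 11 to 17 cell barcodes pairwise, none of them among the gated cells.

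The genes of the gate chose the cells and are given as a description. *Ccr7* had 116, 71 and 55 UMIs in the gated cells (values in threes are for the female library and then for males 1 and 2). These were 75.8, 51.4 and 60.4% of all *Ccr7* UMIs in the cells that passed the filters, so that this receptor was found mostly within the gate. *Fscn1* had 67, 12 and 33 UMIs there, which were 16.1, 17.6 and 70.2% of its UMIs. In the female library 175 of its 415 UMIs lay in cells with 3 or more *Col1a1* UMIs. *Eno3* had 20, 14 and 10 UMIs in the gate (24.4, 42.4 and 29.4% of its UMIs), and *Cacnb3* had 31, 5 and 7 (19.1, 9.62 and 14.6%). *Cacnb3* thus lay mostly outside the gate in all 3 libraries.

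**Figure D1:**
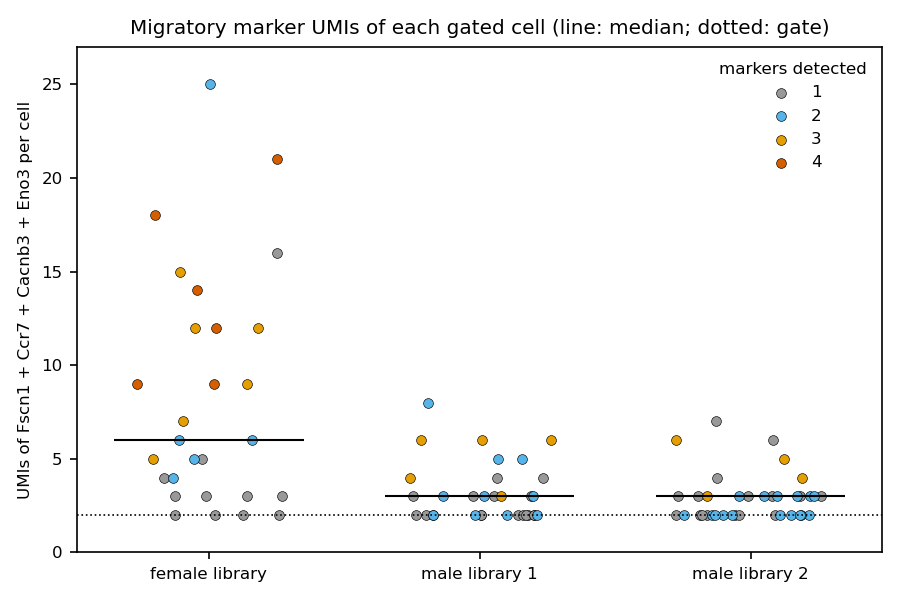
UMIs summed over the 4 migratory markers (vertical axis) in each gated cell, by library, with the colour giving how many of the 4 markers were detected, the line the median and the dotted line the limit of 2 UMIs. Cells of the female library reached 25 UMIs with a median of 6, while the male libraries reached 8 and 7 with medians of 3.

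Many cells lay close to the limit. Exactly 2 marker UMIs were found in 4, 15 and 17 of the gated cells, and 12 or more in 9 cells, all of the female library. Just outside, 28, 46 and 25 class II cells had 1 marker UMI. Near the class II limit, 3 gated cells had 3 to 5 class II UMIs, 3 further cells had 1 or 2 and were left out, and 17 cells past both limits were lost to an exclusion gene. At least 2 of the 4 markers were detected in 17, 16 and 20 cells (53 in all), all 4 markers in 6 cells of the female library, and 1 marker alone in 11, 16 and 16 cells (43 in all). That single marker was *Ccr7* in 37 of the 43.

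Markers of other cell types, listed with earlier results known, were checked in the gated cells. Of 6 macrophage markers, *Csf1r* (the CSF1 receptor) was at 0 in all 3 libraries, and the list summed to 37.9, 1340 and 407 CPM against 12654 to 12879 CPM in C1q-positive cells. C1q at 3 or more UMIs was found in 0, 4 and 2 gated cells. Of 6 T cell markers, 5 were at 0 (*Cd3d*, *Cd3g*, *Trbc2*, *Trac* and *Cd4*), as were all 3 neutrophil markers and all 3 lymphatic endothelial markers. The 5 B cell markers summed to 24, 0 and 2 UMIs, and 3 cells of the female library and 1 of male library 2 had a UMI of *Cd79a*, *Cd79b* or *Ms4a1*. The 7 type 1 DC markers summed to 442, 317 and 170 CPM in the gated cells and to 313, 228 and 180 CPM in Cd209a-positive cells, with *Xcr1* and *Tlr3* at 0. The 5 plasmacytoid DC markers summed to 530, 282 and 407 CPM against 757, 607 and 584 CPM, with *Siglech* and *Ccr9* at 0. The 7 epithelial markers summed to 518, 458 and 1697 CPM in the gated cells, 553, 759 and 1122 CPM in Cd209a-positive cells and 2145, 5461 and 6235 CPM in the free RNA. *Cd209a*, a lectin of tissue DCs, had a UMI in 2, 2 and 1 gated cells. Counts without the 10 cells that had C1q at 3 or more UMIs or a B cell UMI are given with each comparison.

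The gated cells were compared with 105 Cd209a-positive cells (29, 45 and 31). These had 3 or more class II UMIs, 1 or more *Cd209a* UMIs, under 3 C1q UMIs and none of the 4 migratory markers. They are not all the other DCs of the LG, and they also carried monocyte markers, whose sums are given with *Plac8*. UMIs were summed per library and cell group and tested with edgeR's quasi-likelihood test with the library as a block. The markers of the gate came from an earlier clustering of these same cells, so the test shows which genes go with them and is no independent proof of a cell type. Of 608 genes tested, 52 (8.55%) were higher and 29 (4.77%) lower at a Benjamini-Hochberg adjusted p under 0.05, with a median log2 fold change over all genes of 0.03. Without male library 1 these counts were 16 and 3, and without the female library 25 and 21. After subtraction of the free RNA profile, 7 and 1 genes were called among 380, and with 10 cells of other-lineage markers left out, 51 and 38.

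**Figure D2:**
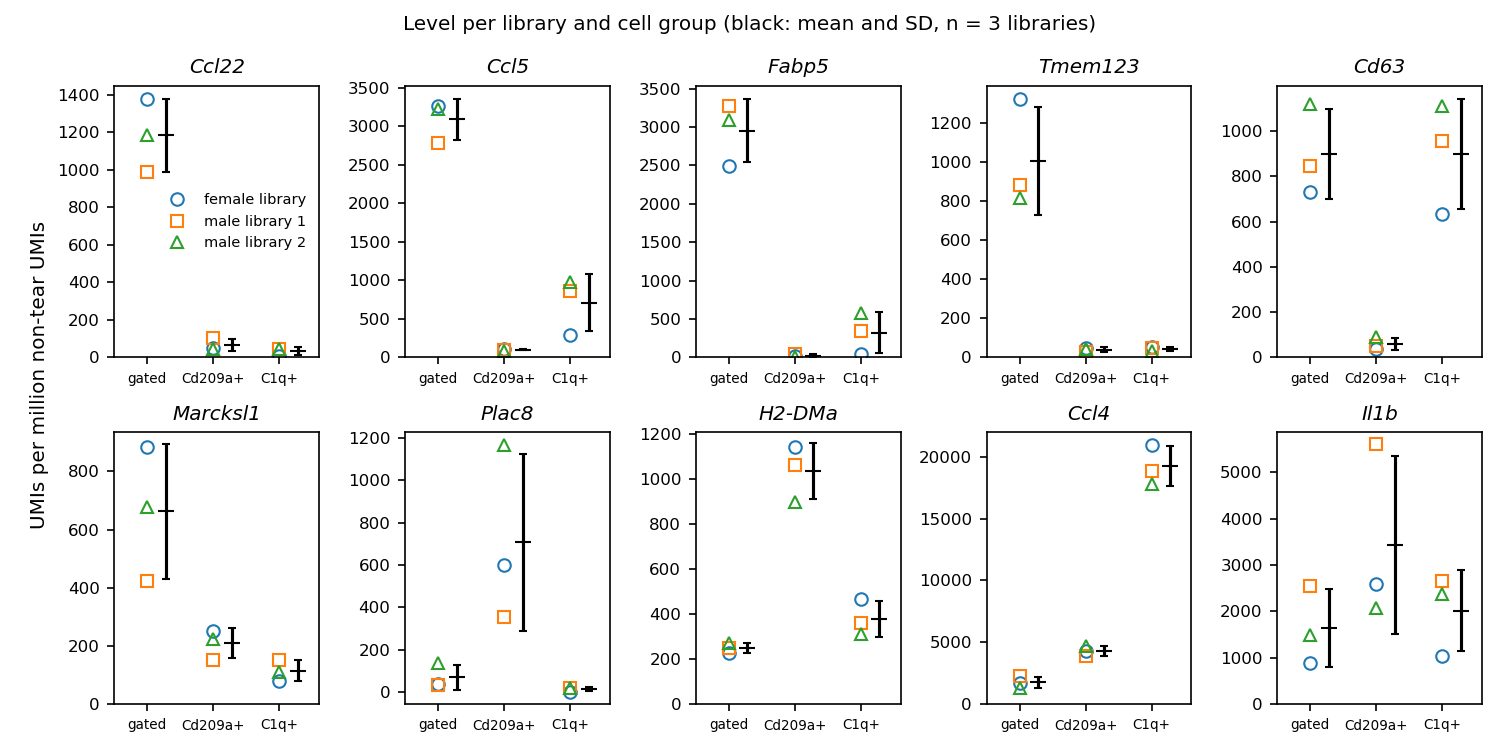
Level of 10 genes (vertical axis, CPM, UMIs summed over cells) in the gated, Cd209a-positive (Cd209a+) and C1q-positive (C1q+) cells of each library, with the mean and SD of the 3 libraries in black. Each library's gated cells lie above its Cd209a-positive cells for the first 6 genes and below them for *Plac8*, *H2-DMa*, *Ccl4* and *Il1b*.

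Chemokine ligands changed in both directions. *Ccl22*, which attracts CCR4-bearing T cells, was at 1376, 987 and 1188 CPM in the gated cells, and at 48.1, 101 and 44.9 CPM in Cd209a-positive cells. The groups did not overlap, and *Ccl22* rose by 4.34 on the log2 scale (SE 0.43, adjusted p = 2.14e-05). *Ccl5*, a chemokine that attracts T cells, was at 3270, 2786 and 3225 CPM against 108, 101 and 89.8 CPM. It rose by 5.02 (SE 0.24, adjusted p = 1.82e-08), again in 3 of 3 libraries. *Ccl22* and *Ccl5* had 9 and 15 UMIs over all Cd209a-positive cells. Both passed the low-count filter only through the gated cells, so these 2 calls are no support by themselves. *Cxcl16*, the ligand of CXCR6, rose by 1.7 (SE 0.35, adjusted p = 0.00592). The neutrophil attractant *Cxcl2* was at 88.4, 2151 and 1528 CPM against 12, 253 and 180 CPM, so its level was far lower in the female library in both groups while the difference had the same sign in each. It rose by 3.12 (SE 0.38, adjusted p = 0.000166). The inflammatory chemokines *Ccl3* and *Ccl4* fell by 1.03 and 1.2 (SE 0.31 and 0.18, adjusted p = 0.0448 and 0.000854). *Ccl4* was at 1667, 2222 and 1324 CPM in the gated cells and at 4304, 3898 and 4713 CPM in Cd209a-positive cells. In all, 4 of the 6 tested ligands of this list of 11 were called higher and 2 lower, with a median log2 fold change of 2.41. *Ccl22* and *Ccl5* are among those 4. Over all genes tested, 8.55% were called higher and 4.77% lower, with a median of 0.03.

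A UMI of *Ccl22* was found in 75% of gated cells of the female library (95% exact interval 55.1 to 89.3%), 25% of those of male library 1 (11.5 to 43.4%) and 41.7% of those of male library 2 (25.5 to 59.2%). In Cd209a-positive cells the shares were 6.9, 6.67 and 3.23%. In fibroblast-gate cells, which should lack it, the shares were 0.0945% in the female library, 0 of 178 cells in male library 1 (which allows up to 1.69%) and 0 of 90 in male library 2 (up to 3.33%). Median depths of those fibroblast-gate cells were 3387, 1651 and 1434 UMIs. With each cell thinned to 1000 UMIs, the gated shares were 35.7, 21.9 and 38.9%, so the female share lay between the male shares at equal total UMIs. Non-tear depth still differed after thinning, since tear-product RNA took a larger part of the male cells. *Ccl5* was found in 53.6, 50 and 55.6% of gated cells and in 50, 43.8 and 52.8% after thinning.

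*Ccl19* and *Ccl21a*, which encode ligands of CCR7, were not detected in the gated cells. *Ccl19* had 0 UMIs among their 137019 non-tear UMIs, which allows up to 21.9 CPM, and *Ccl21a* had 0 as well. Fibroblast-gate cells held 189 of 263, 15 of 104 and 6 of 79 *Ccl19* UMIs of all cells, at 69.9, 93.7 and 76.4 CPM. Most *Ccl19* UMIs of the male libraries thus lay outside that gate, and none lay in the endothelial, T cell or epithelial gates. *Ccl21a*, a gene for CCL21, had 118, 8 and 1 UMIs over all cells, none of them in the fibroblast, endothelial, T cell or epithelial gates. Levels of *Ccl21b* and *Ccl21c* are not given. No ligand level is given for lymphatic endothelium, which was not gated here.

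Of 11 genes of the cytoskeleton and of migration outside the gate, 4 were tested and 3 called higher, beside 8.55% of all genes. Their median log2 fold change was 1.68, and *Gpr183*, a receptor for oxysterols, was not called. *Marcksl1*, which encodes an actin-binding substrate of protein kinase C, was at 884, 423 and 679 CPM against 252, 152 and 224 CPM and rose by 1.8 (SE 0.37, adjusted p = 0.00567). Its relative *Marcks* was at 1098, 952 and 984 CPM and rose by 1.66 (SE 0.3, adjusted p = 0.00252). No group overlap was seen for either gene. *Myo1g*, a membrane-linked myosin of blood cells, was too sparse to be tested here, with 36, 8 and 11 UMIs against 14, 2 and 1. Against the C1q-positive cells described further on, 8 genes of this list were tested. There 6.1% of all genes were called higher and 11.1% lower. *Myo1g* and *Marcksl1* rose, by 3.28 and 2.44 (adjusted p = 3.89e-12 and 1.5e-10), *Itgb2*, an integrin chain, fell by 1.87 (adjusted p = 0.0469) and 5 were not called. *Itgb2* was not called with the 10 cells left out.

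Genes outside the lists were also among those called higher. *Fabp5*, a fatty acid-binding protein, was at 2487, 3280 and 3089 CPM in the gated cells, and had 2, 2 and 0 UMIs in Cd209a-positive cells. It rose by 6.68 (SE 0.34, adjusted p = 2.26e-08). *Tspan3*, a tetraspanin, was at 543, 564 and 543 CPM and at 0 in all Cd209a-positive libraries. That made it at least 26.5-fold higher against a floor of 3 UMIs over that group. The membrane protein gene *Tmem123* was at 1326, 882 and 815 CPM against 48.1, 25.3 and 44.9 CPM and rose by 4.81 (SE 0.45, adjusted p = 1.34e-05). *Cd63*, a tetraspanin of late endosomes, was at 732, 846 and 1120 CPM against 36.1, 50.6 and 89.8 CPM and rose by 4.13 (SE 0.45, adjusted p = 5.1e-05). *Tbc1d4*, a regulator of vesicle traffic, and *Basp1*, a membrane-skeleton protein, rose by 2.76 and 2.7 (SE 0.46 and 0.41, adjusted p = 0.00157 and 0.000854). Of these 6 genes, *Fabp5*, *Tspan3*, *Tmem123* and *Cd63* had at most 7 UMIs each over all Cd209a-positive cells. *Basp1* had 11, 6 and 4 UMIs there. Such genes, *Basp1* included, passed the low-count filter only through the gated cells, so their calls are no support by themselves.

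Survival genes of the BCL2 family were in part higher than in Cd209a-positive cells. *Bcl2a1b* was at 1023, 882 and 1018 CPM against 168, 304 and 89.8 CPM and rose by 2.48 (SE 0.38, adjusted p = 0.000854), and its near-identical copy *Bcl2a1d* rose by 2.16 (SE 0.53, adjusted p = 0.0176). Reads of these copies may be split between them. *Bcl2a1d* had 2, 7 and 3 UMIs in Cd209a-positive cells. It passed the low-count filter only through the gated cells, so its call is no support by itself. *Mcl1* was the third member tested and was not called. Against C1q-positive cells *Bcl2a1b*, *Bcl2a1d* and *Mcl1* were not called. Of 7 survival genes tested there, 1 was called higher, *Birc3*, and none lower, beside 6.1% and 11.1% of all genes in that comparison. Their median was 0.1 beside -0.2 over all genes. The *Birc3* call held in 4 of 15 alternative runs. Of the NF-kB pathway, which drives DC maturation, 1 of 6 tested genes was called, *Traf1*, a TNF receptor adaptor, at 1136, 882 and 679 CPM against 349, 531 and 269 CPM (log2 fold change 1.41, SE 0.33, adjusted p = 0.0128). The median over the 6 genes was 0.04 beside 0.03 over all genes, of which 8.55% were called higher.

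Of 4 tested genes of class II peptide loading, 1 was called higher and 2 lower, beside 8.55% and 4.77% of all genes. *H2-DMa* and *H2-DMb1*, whose products load peptide onto class II molecules, fell by 1.96 and 1.74 (SE 0.32 and 0.45, adjusted p = 0.00144 and 0.0199). *H2-DMa* was at 227, 247 and 272 CPM in the gated cells and at 1142, 1063 and 898 CPM in Cd209a-positive cells, with no overlap. *Ifi30*, a lysosomal thiol reductase, rose by 0.72 (SE 0.2, adjusted p = 0.0314) and *Ctss*, the protease that trims the invariant chain, was not called. Of 5 tested class I genes, *B2m* and *H2-D1* were called higher, by 1.13 and 0.62 (SE 0.17 and 0.18, adjusted p = 0.000854 and 0.043), and the other 3 were not called. *B2m* was at 3927, 2469 and 2410 CPM in the gated cells. The class II genes of the gate were used to choose both groups and are not compared.

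Genes lower in the gated cells were led by *Plac8*, which marks monocytes and some DCs, with 3, 1 and 4 UMIs in the gated cells and 50, 14 and 26 in Cd209a-positive cells. It fell by 3.34 (SE 0.48, adjusted p = 0.000545). *Ms4a6c*, a membrane protein of myeloid cells, *Ptpn18*, a phosphatase, and *Alox5ap*, which feeds arachidonate to leukotriene synthesis, fell by 2.51, 2.21 and 2.13 (SE 0.49, 0.48 and 0.36, adjusted p = 0.00434, 0.00822 and 0.00185). *Plac8*, *Ms4a6c* and *Ptpn18* passed the low-count filter only through the Cd209a-positive cells, so their calls are no support by themselves. *Il1b*, which encodes a pro-inflammatory cytokine, was at 884, 2539 and 1494 CPM against 2585, 5618 and 2065 CPM, lower within each library though the groups overlapped across libraries. It fell by 0.98 (SE 0.18, adjusted p = 0.00285). *Tnfsf9*, the ligand of 4-1BB, fell by 1.3 (SE 0.33, adjusted p = 0.0199). *Cd83*, a maturation marker, was at 807 ± 91.5 CPM (SD, n = 3 libraries) against 623 ± 96.9 CPM and was not called (log2 fold change 0.51, adjusted p = 0.335). *Il12b*, a subunit of IL-12 and IL-23, was at 391, 529 and 272 CPM against 0, 354 and 0 CPM and missed the threshold (adjusted p = 0.0508). *Lyz2*, lysozyme of myeloid cells, was at 12.6, 1093 and 102 CPM against 673, 911 and 2199 CPM. It was not called either, and 31 of its 35 UMIs in gated cells came from male library 1. The 5 monocyte markers of the list that holds *Plac8* and *Lyz2* summed to 101, 1234 and 339 CPM in the gated cells and to 1767, 1620 and 4174 CPM in Cd209a-positive cells. The 5 genes shared by DCs (*Flt3*, *Zbtb46*, *Itgax*, *Batf3* and *Id2*) summed to 947, 741 and 543 CPM against 289, 304 and 269 CPM, and none was abundant enough to be tested.

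The second comparison was with 2500 C1q-positive cells (1369, 595 and 536), the macrophages of the LG, which had 3 or more C1q UMIs, no *Cd209a* UMI and otherwise the same limits. Of 3653 genes, 223 (6.1%) were higher and 405 (11.1%) lower, with a median over all genes of -0.2. The low side held 51 genes with 0 UMIs in the gated cells, and all 51 were called. A gene with counts in the larger group alone passes the low-count filter and has to differ, so the low count is no measure of a shared program. A gene at or near 0 in the C1q-positive cells passed likewise only through the gated cells, so its p-value is no support by itself. Without the female library the counts were 53 and 86, and without male library 2 the lower count was 248. With the 10 cells of other-lineage markers left out, 209 and 362 genes were called. Both comparisons use the same gated cells.

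**Figure D3:**
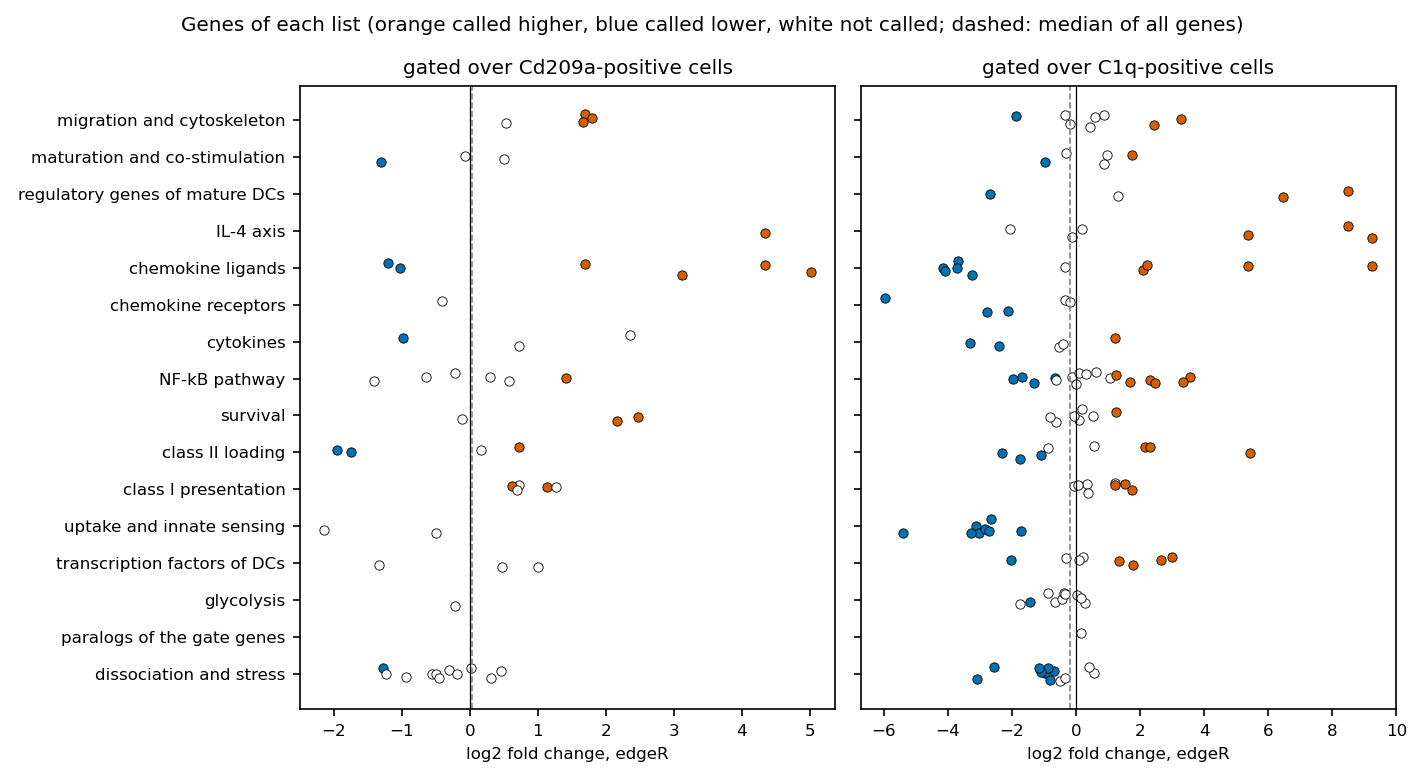
Log2 fold change (horizontal axis) of each tested gene of 16 gene lists, gated cells over Cd209a-positive cells (left) and over C1q-positive cells (right), coloured by call, with the dashed line at the median of all genes. Genes at 0 in all libraries of 1 group are not drawn, since their fitted value is no bound. The chemokine ligands lie on both sides, as do the NF-kB pathway genes against C1q-positive cells.

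Of 7 genes tied to interleukin-4 and to T helper 2 responses, 4 were called higher than in C1q-positive cells and none lower. Over all genes tested there, 6.1% were called higher and 11.1% lower. *Il4i1*, an amino acid oxidase that restrains T cells, had 45, 5 and 13 UMIs in the gated cells and 4, 0 and 1 in the much larger C1q-positive group. It rose by 8.49 (SE 0.52, adjusted p = 2.71e-31). *Ccl17*, which shares the receptor of CCL22, had 23, 5 and 4 UMIs against 0, 0 and 1, a ratio of CPM of 1093 with a counting interval of 183 to 44492 (adjusted p = 1.04e-27). *Tnfrsf4* (OX40) had 17, 2 and 2 UMIs against 0 in every C1q-positive library, at least 239-fold higher against a floor of 3 UMIs. *Il4i1*, *Ccl17* and *Tnfrsf4* were nearly or wholly absent from C1q-positive cells and passed the low-count filter only through the gated cells. Their calls are therefore no support by themselves. *Ccl22* rose by 5.37 (SE 0.36, adjusted p = 3.22e-28). *Il4ra* and *Stat6*, the receptor chain and transcription factor of IL-4 signalling, and *Bcl2l1* were not called. Against Cd209a-positive cells *Il4i1* was at 45, 5 and 13 UMIs over 1, 0 and 0 and too sparse for the test, with a ratio of 66.7 (counting interval 11.5 to 2674). *Ccl17* had a ratio of 4.23 there (1.91 to 10.6).

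Regulators of cytokine signalling parted in sign. *Socs2*, a brake on STAT5 signalling, had 22, 5 and 5 UMIs against 5, 1 and 4 in C1q-positive cells and rose by 6.45 (SE 0.53, adjusted p = 1.6e-21). It was at 0 in every Cd209a-positive library, which made it at least 11.3-fold higher against the floor. *Socs3*, a brake on STAT3 signalling, fell by 2.68 (SE 0.48, adjusted p = 2.71e-06). *Cd274* (PD-L1) was not called, and *Pdcd1lg2* had 2 UMIs, *Cd200* 7 and *Ido1* 0 in the gated cells, so regulators that rely on these genes could not be measured at this depth.

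Within the NF-kB pathway 6 of 17 tested genes were higher than in C1q-positive cells and 4 lower, with a median of 0.31. The shares over all genes were 6.1% higher and 11.1% lower, with a median of -0.2. *Relb*, the partner of p52 in the non-canonical branch, was at 480, 423 and 339 CPM against 28.9, 36.4 and 29.7 CPM and rose by 3.56 (SE 0.39, adjusted p = 3.49e-14). *Traf1*, *Map3k14* (the kinase NIK), *Birc2*, *Nfkb2* (which encodes p100 and p52) and *Birc3* rose by 3.34, 2.46, 2.3, 1.68 and 1.24 (adjusted p = 2.07e-16, 0.000186, 8.4e-06, 0.014 and 0.0349). Those that fell were *Nfkbiz*, *Tnfaip2*, *Tnfaip3* and *Nfkbia*, by 1.98, 1.7, 1.3 and 0.67 (adjusted p = 1.18e-07, 0.0125, 0.000903 and 0.0297). Called genes of the non-canonical branch (*Relb*, *Nfkb2*, *Map3k14*) were higher, and so were *Traf1*, *Birc2* and *Birc3*. Pathway activity was not tested. *Relb* had 38, 12 and 10 UMIs in the gated cells against 4, 0 and 3 in Cd209a-positive cells, a ratio of 9.07 (counting interval 4.14 to 23.5) with no test.

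Of 16 uptake and innate sensing genes, 12 passed the low-count filter, several of them only through their counts in the macrophages, so no statement is made on the list as a whole. *Fcgr3*, an Fc receptor, had 0, 1 and 0 UMIs against 1142, 148 and 101, a ratio of 0.0245 (counting interval 0.000621 to 0.137). *Cd14*, the co-receptor for lipopolysaccharide, fell by 2.73 (SE 0.39, adjusted p = 2.8e-09), *Lyz2* fell by 3.27 (SE 0.34, adjusted p = 3.05e-15) and *Tlr2* fell by 2.83 (SE 0.46, adjusted p = 2.13e-07). Among macrophage genes at 0 in the gated cells, *Csf1r* was at least 27.2-fold, *Pf4* at least 6.85-fold and *Fcgr1* at least 6.33-fold lower against a floor of 3 UMIs. The depth of the gated cells set these bounds. *Ccl4*, *Ccl3* and *Cxcl10*, a ligand of CXCR3, fell by 3.73, 3.7 and 4.1 (adjusted p = 2.74e-28, 8.7e-26 and 3.71e-20). *Ccl2*, the monocyte attractant, had 1, 2 and 0 UMIs against 1159, 200 and 182, a ratio of 0.0665 (counting interval 0.0137 to 0.195). The neutrophil attractant *Cxcl2*, higher than in Cd209a-positive cells, fell by 3.24 against C1q-positive cells (adjusted p = 1e-20).

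Of the DC transcription factors, 8 of 13 were tested, 4 called higher and 1 lower, beside 6.1% and 11.1% of all genes. *Nr4a3*, an orphan nuclear receptor, rose by 2.64 (SE 0.38, adjusted p = 4.8e-09), *Stat5a* by 2.99 (SE 0.53, adjusted p = 5.28e-05), *Etv3* by 1.79 (SE 0.32, adjusted p = 3.03e-06) and *Batf3* by 1.34 (SE 0.49, adjusted p = 0.0405), while *Zeb2* fell by 2.03 (SE 0.36, adjusted p = 2.4e-06). None of *Etv3*, *Nr4a3* and *Zeb2* was called against Cd209a-positive cells. The immunoproteasome subunits *Psmb8* and *Psmb9* and the peptide transporter *Tap1* rose by 1.23, 1.75 and 1.53 (adjusted p = 0.000514, 1.73e-05 and 0.0083). These were 3 of 8 tested class I genes, and *B2m* and *H2-D1* were among the 5 not called. The class II chaperone genes *H2-DMb2* and *H2-Oa* rose by 5.44 and 2.16 (adjusted p = 1.66e-17 and 0.00193), and *Ifi30* rose by 2.31 (adjusted p = 5.22e-13). The proteases *Ctss* and *Lgmn* fell by 1.76 and 2.3 (adjusted p = 5.98e-09 and 2.01e-08), and *H2-DMb1* fell by 1.09 (adjusted p = 0.0224). Class II loading genes thus numbered 3 higher and 3 lower of 8. *S100a4*, a calcium-binding protein of motile cells and a known DC gene, was at 3535, 2892 and 2851 CPM against 13.8, 50.2 and 51 CPM and rose by 6.41 (SE 0.32, adjusted p = 4.62e-40). *Tbc1d4* rose by 6.28 (SE 0.36, adjusted p = 2.92e-34). *H2-Eb2*, a class II beta chain gene, had 11, 5 and 7 UMIs against 1, 1 and 0, a ratio of 393 (counting interval 97 to 3436). *Cd40* rose by 1.76 (SE 0.58, adjusted p = 0.0207) and *Cd86* fell by 0.97 (SE 0.36, adjusted p = 0.049). Of 15 alternative runs, the *Cd40* call held in 8 and the *Cd86* call in 2, so these calls do not settle whether co-stimulatory genes parted. Of 10 tested glycolysis genes only *Gpi1* was called, as lower by 1.43 (adjusted p = 0.0191).

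Dissociation genes were lower than in macrophages for 8 of 12 tested genes, with a median of -0.85, beside 11.1% and -0.2 over all genes. With the 10 cells left out, 5 were called lower. *Atf3* fell by 2.57 there and by 1.28 against Cd209a-positive cells (adjusted p = 1.3e-14 and 0.00882), where it was the 1 called gene of 11 tested. Over all genes tested against Cd209a-positive cells, 4.77% were called lower. The *Atf3* call against Cd209a-positive cells held in 11 of 15 alternative runs. The list summed to 7108, 5748 and 6721 CPM in the gated cells, 11217, 7390 and 8977 CPM in Cd209a-positive cells and 13667, 9230 and 8854 CPM in C1q-positive cells. The part of this difference in handling stress in the other results was not tested.

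Promoters of called genes were searched for the kappaB motif of NF-kB (GGGA, then any base, then TTTCC) on both strands, in RefSeq windows from 250 bases before to 50 after each start (GRCm38.p6, the build the submitters' notes give as mm10). Of 27025 genes with a window, 126 (0.466%) held it. Of 43 genes called higher than in Cd209a-positive cells that had a window, 2 held it (4.65%), *B2m* and *Cxcl2*. None of the 23 called lower did. Against C1q-positive cells it was found in 2 of 180 genes called higher and 5 of 316 called lower, so a match went with either direction. The windows of *Fscn1*, *Eno3* and *Cacnb3* did not hold these letters, and *Ccr7* was not searched. The 250 bases before the start are shown, with the motif in capitals, for *B2m* and *Cxcl2*, the genes called against Cd209a-positive cells with a match. Against C1q-positive cells *B2m* was not called and *Cxcl2* was called lower. *Nfkbia*, a known NF-kB target, is shown as a gene not called against Cd209a-positive cells. It was called lower against C1q-positive cells.
B2m, chr2:122147437-122147686, plus strand: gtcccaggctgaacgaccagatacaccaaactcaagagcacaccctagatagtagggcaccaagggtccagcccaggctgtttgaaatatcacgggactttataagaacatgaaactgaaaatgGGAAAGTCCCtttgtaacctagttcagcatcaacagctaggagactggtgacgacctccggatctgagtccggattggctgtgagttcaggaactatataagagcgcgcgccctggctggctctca
Cxcl2, chr5:90903649-90903898, plus strand: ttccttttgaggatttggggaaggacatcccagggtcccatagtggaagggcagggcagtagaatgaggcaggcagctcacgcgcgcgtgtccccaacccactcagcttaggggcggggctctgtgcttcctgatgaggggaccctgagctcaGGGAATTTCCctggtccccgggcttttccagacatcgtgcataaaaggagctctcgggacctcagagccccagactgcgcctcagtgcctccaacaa
Nfkbia, chr12:55492648-55492897, minus strand: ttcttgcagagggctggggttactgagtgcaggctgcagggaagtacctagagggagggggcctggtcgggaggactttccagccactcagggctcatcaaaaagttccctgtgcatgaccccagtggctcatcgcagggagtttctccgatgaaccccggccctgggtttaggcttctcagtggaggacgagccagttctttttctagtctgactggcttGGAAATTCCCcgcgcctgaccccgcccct
The motif began 126, 97 and 29 bases before the start in *B2m*, *Cxcl2* and *Nfkbia*, read from the other strand in *B2m* and *Nfkbia*. A match to these letters is a description and says nothing on binding.

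The gated cells were also split by the number of markers detected. What follows is a description without a test, since the split was chosen after the values had been seen. Cells with 2 or more of the 4 markers were set against those with 1. Of 548 genes with 30 or more UMIs over both sets, outside the gate, 96 were higher and 97 lower in the cells with 2 or more markers in 3 of 3 libraries. How many genes would agree in 3 libraries by counting error alone was not assessed, so these counts do not measure how many differ. The genes named next include some of the largest ratios of this same ranking. *Relb* was at 631, 819 and 538 CPM in cells with 2 or more markers and at 158, 67 and 78.6 CPM in those with 1. *Tspan3* was at 761, 968 and 776 CPM against 78.9, 201 and 236 CPM. *Il4i1* was at 761, 298 and 657 CPM against 158, 67 and 157 CPM. For these 3 genes the 2 sets did not overlap over the 3 libraries. *Fabp5* followed them at 3527, 4393 and 4360 CPM against 276, 2278 and 1416 CPM, as did *Tmem123* at 1893, 1191 and 1195 CPM against 118, 603 and 315 CPM. *Ccl22* did so in the female library and male library 1 (1764 and 1713 CPM against 553 and 335 CPM) and not in male library 2 (1075 against 1337 CPM).

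**Figure D4:**
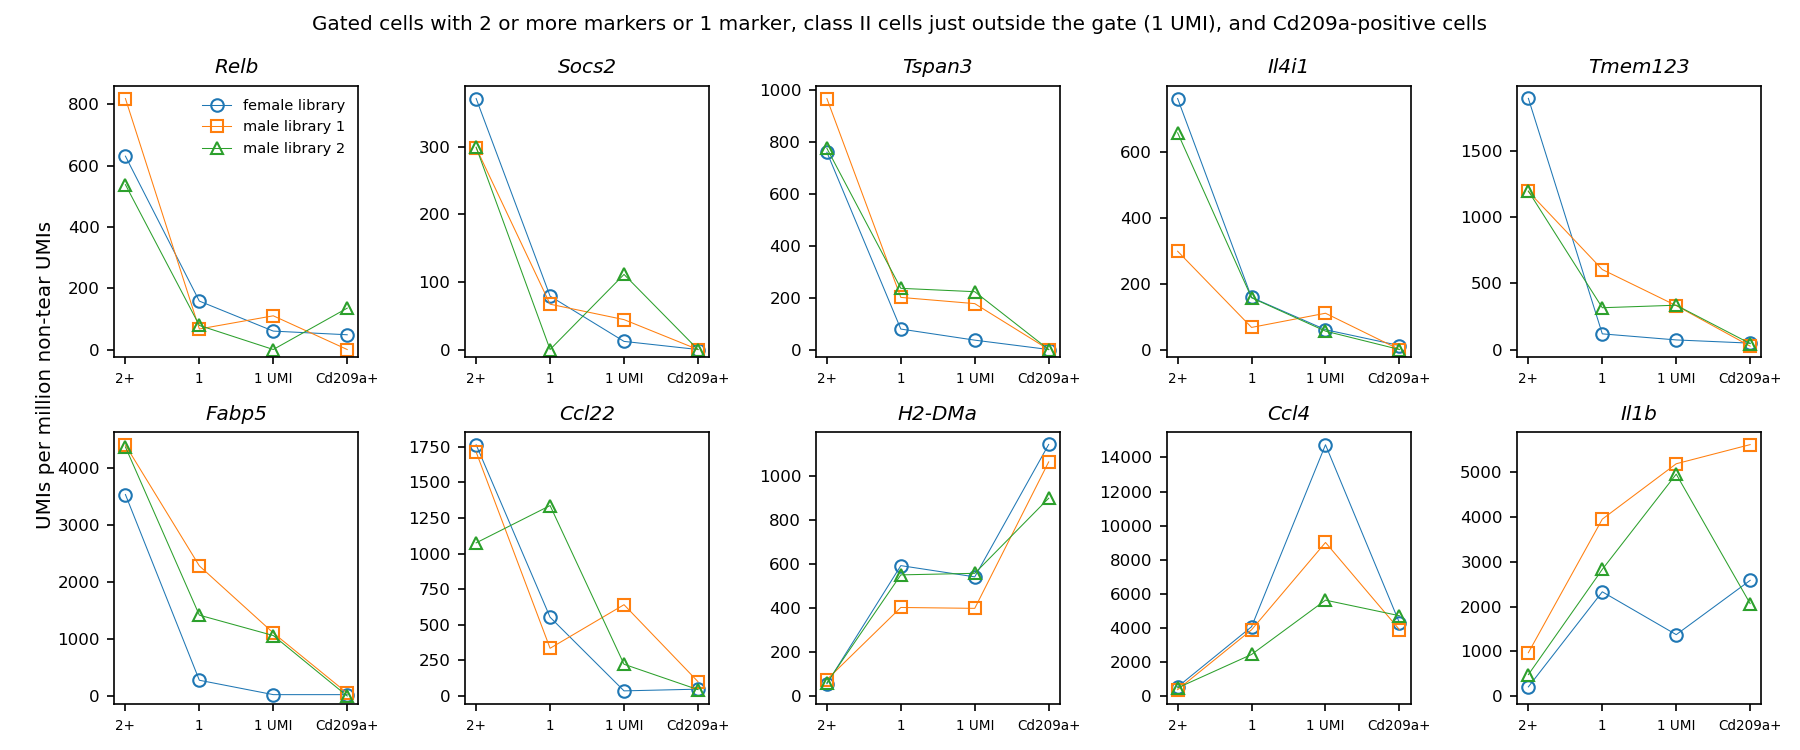
Level of 10 genes (vertical axis, CPM) in gated cells with 2 or more markers (2+), gated cells with 1 marker (1), class II cells with 1 migratory-marker UMI just outside the gate (1 UMI) and Cd209a-positive cells (Cd209a+), with 1 line per library. *Relb*, *Tspan3*, *Il4i1*, *Tmem123* and *Fabp5* were highest in the cells with 2 or more markers in each library, and *H2-DMa*, *Ccl4* and *Il1b* lowest.

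The cells with 1 marker carried genes of other class II cells. *Il1b* was at 204, 968 and 478 CPM in cells with 2 or more markers and at 2329, 3953 and 2831 CPM in cells with 1. *Ccl4* was at 538, 372 and 478 CPM against 4066, 3886 and 2438 CPM, and *H2-DMa* at 55.7, 74.5 and 59.7 CPM against 592, 402 and 550 CPM. *Cd209a* and *Plac8* had 0 UMIs in the 53 cells with 2 or more markers and 19 and 8 UMIs in the 43 with 1. *Cxcl2* had 7, 6 and 1 UMIs in the former and 0, 55 and 44 in the latter, so most of its UMIs in the male libraries lay in cells with 1 marker. Cells with 2 or more markers had *Cxcl2* at 130, 447 and 59.7 CPM, above the Cd209a-positive cells in the female library and male library 1 and below them in male library 2. All 24 B cell marker UMIs of the female library, and 18 of its 19 UMIs of 4 proliferation genes, lay in cells with 1 marker. Of the macrophage markers, 36 and 12 UMIs lay in the cells with 1 marker of male library 1 and male library 2, against 2 and 0 in those with more. Epithelial markers went the other way, at 705, 819 and 2270 CPM in cells with 2 or more markers and 118, 134 and 944 CPM in those with 1. Median non-tear UMIs per cell were 3231, 835.5 and 697.5 in cells with 2 or more markers and 1302, 909.5 and 761 in those with 1. For the 43 cells with 1 marker the migratory DC name rests on that marker and class II alone, and *Relb*, *Tspan3*, *Il4i1*, *Tmem123* and *Fabp5* were lower in them in each library. The 99 class II cells just outside the gate had *Relb* at 60.1, 110 and 0 CPM and *Il4i1* at 60.1, 110 and 55.7 CPM, below the cells with 2 or more markers in each library.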

How the data were processed

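Droplet single-cell RNA sequencing was made from 3 libraries. The authors deposited, for each cell barcode, raw UMI counts by gene, made with Cell Ranger 6.1.2 on mm10, per the submitters' processing notes. The matrices of called cells were used, before the study's later removal of free RNA and doublets. Totals over the cells that passed the filters were 60331289, 39455793 and 43337901 UMIs, and the median cell had 3302, 1891 and 1879 UMIs. No other per-sample columns were left out.

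UMIs of all genes were summed per library and cell group and tested with edgeR 4.0.16 in R 4.3.3 (TMM scaling, quasi-likelihood test, library as a block, Benjamini-Hochberg adjustment over all genes tested). Gate genes were not tested, and SEs come from the F statistic. CPM levels leave tear-product genes out of the total. Groups came from the same cell suspension, which pairs them, and deviations of the pairs correlated at 0.724, 0.397 and 0.432 for Cd209a-positive cells and at 0.407, 0.093 and 0.249 for C1q-positive cells. On simulated counts for the Cd209a-positive comparison (581 genes), 97.9% of genes changed 4-fold and 100% of those changed 16-fold were recovered. For the C1q-positive comparison (3432 genes) the shares were 74.7% and 100%, with 7 false calls among 176, against 2 among 196. Doublets were kept in the main counts and removed with scrublet (scanpy 1.11.5) as an alternative. The pools are the only replicates. With the library as a block, p-values rest on how the within-library differences varied over the 3 libraries, with dispersion shared across genes. They do not measure the spread between animals.

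The members and gene lists were chosen with earlier results of these data known. Named genes were those called with the largest changes and up to 6 called genes a list, ranked in the Cd209a-positive comparison. The same naming was extended to C1q-positive cells after values were seen, and the split by marker number was also chosen then. Genes named for context, such as *Itgb2* and *Tlr3*, were chosen after their values were seen. *Clec7a* was not analysed here.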

Additional observations from a re-analysis of the deposited data

How the results depend on the processing

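Against Cd209a-positive cells, the main counts were 52 genes higher and 29 lower. Higher genes numbered 28 with scaling to total UMIs, 17 with DESeq2's Wald test, 29 without the library block and 7 after subtraction of free RNA, and 16 to 76 with a library left out. Lower genes numbered 7, 12 and 1 with DESeq2, without the block and after subtraction, and 3 to 36 with a library left out. Against C1q-positive cells, from 223 higher and 405 lower, DESeq2 gave 143 and 144, subtraction of free RNA 122 and 207, and the fit without the block 238 lower. With a library left out the counts were 53 to 200 and 86 to 288. Scaling to total UMIs moved the median log2 fold change over all genes from 0.03 to -0.15 against Cd209a-positive cells. The causes of these differences were not tested. No named gene reversed, and *Ccl22*, *Ccl5*, *Fabp5*, *Tmem123* and *Plac8* were called against Cd209a-positive cells in every alternative run. All of these passed the low-count filter through 1 group only, *Plac8* through the Cd209a-positive cells and the others through the gated cells. Their repeated calls are thus no support by themselves. Other named calls were lost in most runs. Against Cd209a-positive cells the *Ifi30* call held in 7 of 15 alternative runs and the *H2-D1* call in 5. Against C1q-positive cells *Nfkbia* and *H2-DMb1* held in 5 each, *Gpi1* and *Birc3* in 4, *Batf3* in 3, *Cd86* in 2 and *Itgb2* in 1. Alternatives chosen after seeing the data left tear-product genes out of the tested genes (66 and 33 against Cd209a-positive cells) or left out cells over 80% tear-product UMIs (68 and 37). A limit of 3 marker UMIs lowered the share of gated cells to 0.305% and 0.333% in male libraries 1 and 2. Thinning lowered the female share of cells with a *Ccl22* UMI to 35.7% and with a *Lyz2* UMI from 3.57 to 0%. With 96 cells and 137019 non-tear UMIs, genes under 21.9 CPM could not be measured.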
